A study of Mus musculus with 9 samples.

Results

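Transcripts of 7 genes were followed through 3 sorted populations of mouse colon epithelium. The genes were Nox1 and Duox2, catalytic NADPH oxidases, Noxa1, Noxo1, Cyba and Duoxa2, proteins on which these oxidases depend, and Nlrp6, an innate immune sensor. They were taken by symbol from a table of 24421 gene symbols, and all 7 were found. All 7 also passed the filter on low values that 12888 genes passed (at least 1 TPM in at least 3 libraries, where TPM is transcript abundance normalised for transcript length and library size). The oxidase genes were named by family but with earlier results of these data known, so their tests are not free of that knowledge. The group was chosen by the TPM levels of Nox1 and Nlrp6, which were taken as highest in Lgr5-enriched cells. The differences of these 2 genes from that population are therefore given as a description with no test. By its mean, Nlrp6 did not meet that choice: its level was 187 TPM in enterocyte-enriched and 180 TPM in Lgr5-enriched cells.

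The study asked how 3 cell populations of the colonic crypt differ in their transcripts. Each population had 3 libraries, from adult C57BL/6J mice that the labels give as female, with no genetic change or treatment. Lgr5-enriched cells, from the crypt bottom around the stem cells, were sorted as Epcam+, Cd44+ and Kit-neg. Goblet-enriched cells, mucus-secreting cells also from the crypt bottom, were Epcam+, Cd44+ and Kit+. Enterocyte-enriched cells, the absorptive cells of the crypt top, were Epcam+, Cd44-neg and Cd66a-high. Cells with T cell, myeloid, endothelial or pan-leukocyte surface antigens (Cd3, Cd16/Cd32, Cd31 and Cd45) had been gated out in all 3. Each population is an enrichment by surface antigens and not a pure cell type.

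NADPH oxidases move electrons from NADPH across a membrane to oxygen and make superoxide or hydrogen peroxide. NOX1 needs the membrane partner p22phox (Cyba), the organizer Noxo1, the activator Noxa1 and a Rac GTPase, while DUOX2 needs the maturation factor Duoxa2 to leave the endoplasmic reticulum and releases hydrogen peroxide at the apical surface. In the colon both enzymes are known for their part in mucosal defence, and NOX1 also for its part in epithelial growth and repair. NLRP6 is a sensor of the NLR family that can act through the adaptor ASC (Pycard) and caspase-1 on interleukin-18, and it has been studied in colonic goblet cells and enterocytes.

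The 7 genes lie at 6 loci of the mouse genome, given here from GENCODE M21 on GRCm38, the assembly that is also called mm10. Nox1 is annotated at chrX:134086421-134221956 on the minus strand, Noxa1 at chr2:25085667-25095149 (minus), Noxo1 at chr17:24696234-24700529 (plus), Cyba at chr8:122424776-122432930 (minus) and Nlrp6 at chr7:140920902-140929192 (plus). Duox2 (chr2:122279247-122298449, minus) and Duoxa2 (chr2:122298900-122302885, plus) stand head to head, and 673 bases separate their RefSeq start sites. Nox1, Noxa1, Noxo1, Cyba and Duoxa2 each overlap a gene on the opposite strand, so their values rest on counting whose use of the strand is not given in the sources used here. Nox1 as annotated also overlaps Xkrx on its own strand, which strand alone cannot separate. Xkrx had means of 0.576, 0.421 and 0.536 TPM in Lgr5-, goblet- and enterocyte-enriched cells. The overlapping genes at 2 of these loci had values that matter here. Cstf2, opposite the long annotated form of Nox1, stood at 98.3 ± 48.9, 38.7 ± 9.54 and 22.2 ± 1.09 TPM (SD, n = 3) in Lgr5-, goblet- and enterocyte-enriched cells, the same order as Nox1. Entpd8, opposite Noxa1, stood at 59.7 ± 28.8, 72.4 ± 20.6 and 182 ± 40.9 TPM (SD, n = 3), an order that Noxa1 did not share.

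Start regions are shown for 2 pairs of a catalytic gene and its partner: Nox1 with its activator Noxa1, both highest in Lgr5-enriched cells, and Duox2 with its head-to-head neighbour Duoxa2. Each run is the 250 bases before the start site, from RefSeq (GRCm38.p6), 5′ to 3′ on the gene's strand, with motif matches in capitals.
Nox1, chrX:134111855-134112104, minus strand: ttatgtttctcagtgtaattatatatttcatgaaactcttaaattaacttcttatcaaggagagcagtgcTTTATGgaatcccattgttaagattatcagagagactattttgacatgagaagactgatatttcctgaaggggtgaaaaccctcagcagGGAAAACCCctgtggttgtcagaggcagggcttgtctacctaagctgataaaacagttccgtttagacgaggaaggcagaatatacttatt
Noxa1, chr2:25095206-25095455, minus strand: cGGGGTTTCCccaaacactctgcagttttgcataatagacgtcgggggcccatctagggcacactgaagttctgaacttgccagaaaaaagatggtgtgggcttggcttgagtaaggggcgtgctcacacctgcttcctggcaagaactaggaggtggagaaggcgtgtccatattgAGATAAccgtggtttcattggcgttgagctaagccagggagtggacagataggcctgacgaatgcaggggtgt
Duox2, chr2:122298228-122298477, minus strand: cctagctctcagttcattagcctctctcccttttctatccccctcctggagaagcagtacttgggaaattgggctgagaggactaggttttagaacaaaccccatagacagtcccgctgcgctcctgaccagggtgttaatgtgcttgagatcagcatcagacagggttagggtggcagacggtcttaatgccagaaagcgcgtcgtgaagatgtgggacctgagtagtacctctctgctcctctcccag
Duoxa2, chr2:122298650-122298899, plus strand: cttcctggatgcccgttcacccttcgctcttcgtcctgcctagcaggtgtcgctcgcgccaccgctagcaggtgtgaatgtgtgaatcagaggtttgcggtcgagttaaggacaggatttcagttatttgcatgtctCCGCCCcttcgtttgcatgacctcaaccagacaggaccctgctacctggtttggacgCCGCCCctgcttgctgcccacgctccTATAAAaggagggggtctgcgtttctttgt

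The motifs were searched on both strands in windows from 250 bases before to 50 bases after each start, and all 7 genes matched 1 window each among 32851. For a match, plus means the strand as printed, which is that of the gene, and minus the strand opposite it. Nox1 held the CDX motif TTTATG from base -180 and again, on the minus strand, from base 43 after the start. TTTATG was present in 11.9% of all windows. Nox1 and Noxa1 each held the NF-kappaB motif GGGNNTTCC, from base -91 on the minus strand and from base -249 on the plus strand. That motif was present in 5.82% of all windows. Noxa1 also held the GATA motif AGATAA from base -73, present in 11.2%. Duoxa2 held the TATA box TATAAA from base -30 (13.6% of windows) and the GC box GGGCGG on the minus strand from bases -113 and -56 (35.7%). The windows of Duox2 and Nlrp6 held none of the 8 motifs, which also included CTTTGAT (TCF/LEF, 3.73%), CAAAGTCCA (HNF4, 0.475%) and TTCNNNGAA (STAT, 8.30%). A match is a description of letters and not a binding site, and none of the motifs overlapped another in the printed runs.

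Facts of the whole set that touch these genes are few. Whole reads recovered from the values gave a depth of at least 11.2 to 26.8 M per library (M stands for 1000000), and the 7 genes were read 72 to 20379 times in a library. Summed markers of stem cells were 1223 to 1413 TPM in Lgr5-enriched, 628 to 687 TPM in goblet-enriched and 156 to 259 TPM in enterocyte-enriched cells. Summed goblet markers were 1502 to 1666, 45634 to 62390 and 14529 to 22782 TPM in that order, and summed colonocyte markers 436 to 682, 736 to 1310 and 6169 to 9953 TPM. Between Lgr5- and goblet-enriched cells the colonocyte markers differed in direction. Guca2a (means 121 and 804 TPM), Cdhr5 (151 and 200 TPM), Car4 and Krt20 had higher means in goblet-enriched cells. Car1 (99.0 and 20.2 TPM), Slc20a1 (113 and 42.3 TPM), Slc26a3 and Aqp8 had lower means there. The goblet markers Muc2, Spink4, Agr2, Atoh1 and Spdef were higher in goblet- than in enterocyte-enriched cells. Zg16 (means 345 and 5481 TPM) and Tff3 (1120 and 1918 TPM) were lower, and Clca1 (2770 and 2756 TPM) and Fcgbp (1247 and 1454 TPM) overlapped. In the order Lgr5-, goblet- and enterocyte-enriched, the 6 enteroendocrine markers summed to 155 to 295, 12.8 to 78.2 and 145 to 236 TPM, lowest in goblet-enriched cells. Summed tuft cell markers (1.93 to 4.66, 7.94 to 48.3 and 2.61 to 5.57 TPM) were highest in goblet-enriched cells. Summed Paneth cell markers were 3.82 to 32.0, 81.0 to 746 and 22.0 to 96.2 TPM, so goblet- and enterocyte-enriched libraries overlapped. In goblet-enriched cells that sum was mostly Pla2g2a (means 12.0, 330 and 47.0 TPM in the 3 populations). Mmp7 was also highest there (0.619, 7.63 and 0.382 TPM), Lyz1 was not (1.33, 8.17 and 8.64 TPM), and Defa24 was at 0 throughout. The pre-ribosomal RNA Rn45s stood at 49046 TPM in Lgr5-enriched replicate 1 and at 2356 to 6009 TPM in the other 8 libraries, and in a TPM scale such a transcript lowers all others of its library. Enterocyte-enriched replicate 1 went against its label: Xist, the RNA of the silenced X chromosome, was at 0.128 TPM there and at 110 to 204 TPM elsewhere, and Y-linked transcripts summed to 139 TPM against at most 0.325 TPM. Where leaving it out ended a call of a named gene or moved a list count by over 1.5 times, the value without it is given. These are bulk libraries, so a lower level can come from fewer cells with the transcript or from less of it per cell, and the 2 cannot be told apart.

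Expression was compared with limma on log2(TPM + 1), and adjusted p-values are Benjamini-Hochberg values over the 12888 genes of a comparison, with a threshold of 0.05. Relative to Lgr5-enriched cells, 10.7% of genes were higher and 23.6% lower in goblet-enriched cells, and 12.0% were higher and 37.6% lower in enterocyte-enriched cells. Between the differentiated populations, 28.2% were higher and 15.9% lower in goblet-enriched than in enterocyte-enriched cells. Counts within the lists below can be read against these shares. These shares depend on the scaling: calls on the higher side made up 31.3%, 24.2% and 63.9% of all calls in the 3 comparisons, and 54.3%, 54.5% and 48.1% after median-of-ratios scaling. In counts of the 12888 genes, that scaling gave 1839 higher and 1549 lower, 3033 and 2534, and 2553 and 2751. With the replicate number as a block they were 1794 and 4563, 2050 and 5841, and 4683 and 2653. Without enterocyte-enriched replicate 1 they were 1409 and 3189, 1258 and 4037, and 2819 and 1753. The gene in the middle of the ranking differed by -0.26, -0.35 and 0.20 on the log2 scale, and differences of members can be read against that. In each comparison the libraries of the 2 populations did not overlap for at least 6182 of the 12888 genes. A lack of overlap, given below for single genes, was thus common. Against this background, 2 of the 5 members tested were lower in goblet-enriched than in Lgr5-enriched cells (Noxa1 and Cyba) and 1 of 5 was lower in enterocyte-enriched cells (Noxa1). Between goblet- and enterocyte-enriched cells 2 of 7 were lower in goblet-enriched cells (Cyba and Nlrp6). No member was called higher in any of the 3 comparisons, in which all are written as the first population against the second.

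**Figure D1:**
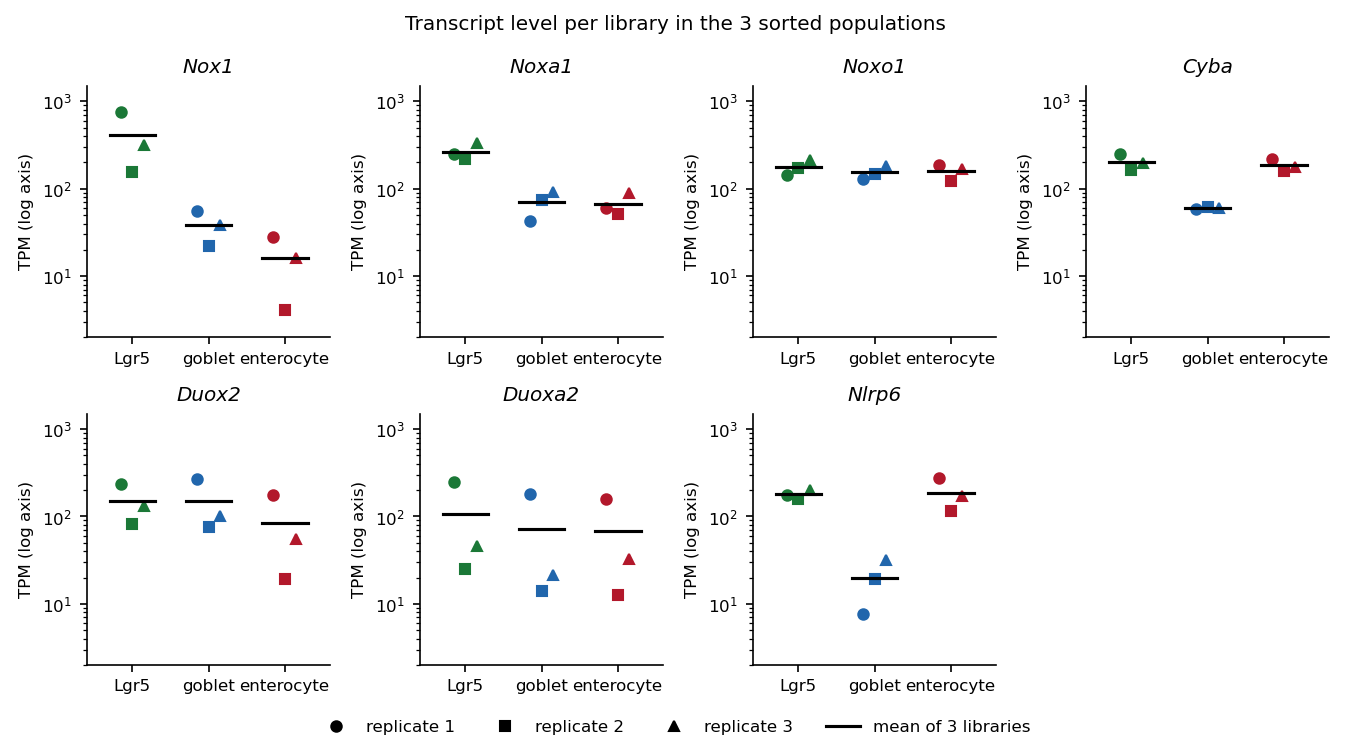
Level of the 7 genes in each of the 9 libraries, in TPM on a log axis, by population and replicate, with bars at the mean of 3 libraries. The Nox1 points of Lgr5-enriched cells (156 to 762 TPM) lie above all others, Cyba and Nlrp6 are low in goblet-enriched cells alone, and the points of replicate 1 lie highest in every population for Nox1, Duox2 and Duoxa2.

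Nox1, the catalytic subunit of the superoxide-producing oxidase of the colon, was at 762, 156 and 315 TPM in Lgr5-enriched replicates 1 to 3. It was at 55.6, 22.1 and 38.1 TPM in goblet-enriched and at 27.7, 4.07 and 16.1 TPM in enterocyte-enriched cells. Every Lgr5-enriched library was above every library of the other populations, and the goblet- and enterocyte-enriched libraries overlapped. The means were 411 ± 314, 38.6 ± 16.8 and 16.0 ± 11.8 TPM (SD, n = 3), so the Lgr5-enriched mean was 10.6-fold and 25.8-fold the other means. On the log2 scale the differences from Lgr5-enriched cells were -3.18 and -4.63, each with a standard error (SE) of 0.71. Over the 19 alternative analyses they ran from -3.73 to -2.58 and from -5.18 to -3.92. Some alternatives, such as the replicate block, leave these estimates unchanged by design. Nox1 was chosen for its Lgr5-enriched level, so these ranges are a description. Nox1 was 1.45 higher (SE 0.71) in goblet- than in enterocyte-enriched cells on that scale, which missed the threshold in limma (adjusted p = 0.123). With the replicate number as a block the same difference had an SE of 0.24 and an adjusted p of 0.0017. The gene lies on the X chromosome, and without enterocyte-enriched replicate 1 the enterocyte-enriched mean was 10.1 TPM.

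Duox2, the catalytic subunit of the apical peroxide-producing oxidase, was at 237, 83.1 and 133 TPM in Lgr5-enriched replicates 1 to 3 and at 272, 76.2 and 102 TPM in goblet-enriched ones. It was at 178, 19.4 and 55.6 TPM in enterocyte-enriched cells. The 3 populations overlapped, and within each the first replicate was far above the others. The means were 151 ± 78.6, 150 ± 106 and 84.3 ± 83.0 TPM (SD, n = 3). Goblet- and Lgr5-enriched cells differed by -0.10 (SE 0.76, limma adjusted p = 0.928). Enterocyte-enriched cells were 1.23 below Lgr5-enriched cells (log2 difference -1.23, SE 0.76, adjusted p = 0.205) and 1.13 below goblet-enriched cells (goblet minus enterocyte 1.13, SE 0.76, adjusted p = 0.254). Whether these differences passed turned on how replicates were treated. With the replicate block both differences passed (SE 0.28, limma adjusted p = 0.007 and 0.0113). Without enterocyte-enriched replicate 1 they were -2.03 (adjusted p = 0.037) and 1.93 (adjusted p = 0.0497). Without replicate 1 of every population they were -1.65 (adjusted p = 0.034) and 1.39 (adjusted p = 0.0633).

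TPM is a level per transcript length, so the catalytic genes can be set side by side within a library. Of the summed TPM of 6 catalytic genes (Nox1, Nox3, Nox4, Cybb, Duox1 and Duox2), Nox1 made up 76.2%, 64.9% and 70.1% in Lgr5-enriched replicates 1 to 3. It made up 16.9%, 22.2% and 27.0% in goblet-enriched and 13.1%, 16.1% and 22.3% in enterocyte-enriched replicates. Duox2 held nearly all of the rest, with 23.7% to 34.7%, 72.2% to 82.6% and 76.5% to 84.2% in that order of populations. The ratio of Nox1 to Duox2 was thus 1.87 to 3.21 in Lgr5-enriched libraries, 0.205 to 0.374 in goblet-enriched and 0.156 to 0.290 in enterocyte-enriched ones. The leading oxidase transcript was Nox1 in all 3 Lgr5-enriched libraries and Duox2 in all 6 others. Since both genes were high in replicate 1, this share varied less between replicates than either level. The 6 genes summed to 1000, 240 and 450 TPM in Lgr5-enriched, 329, 99.7 and 141 TPM in goblet-enriched and 211, 25.3 and 72.3 TPM in enterocyte-enriched replicates. Nox1 was chosen for its Lgr5-enriched level, so the shares are a description.

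**Figure D2:**
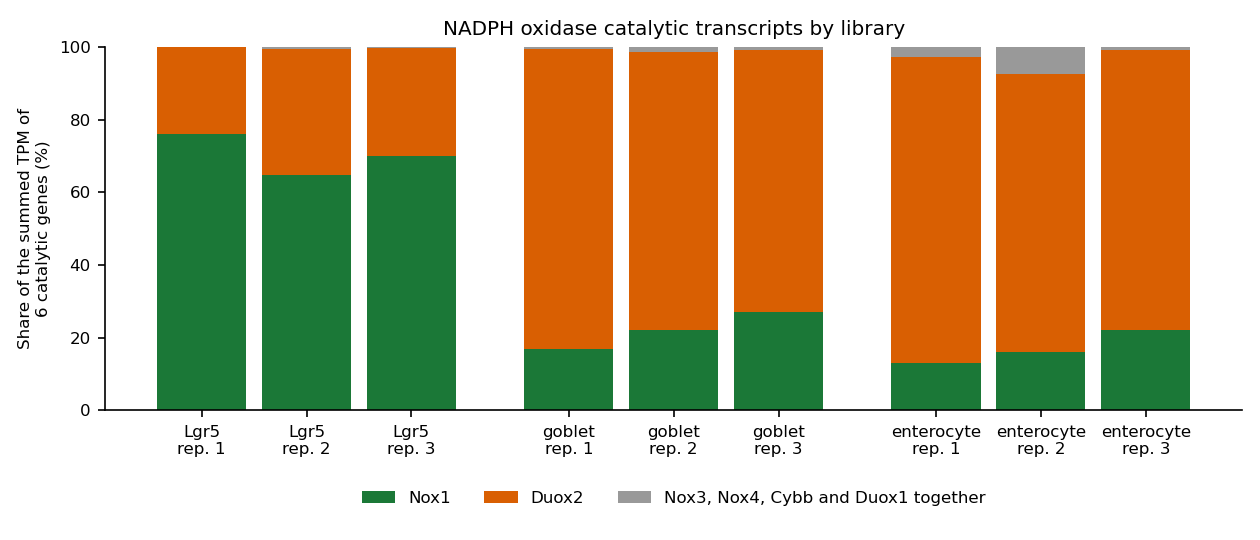
Share of 6 catalytic NADPH oxidase genes in their summed TPM, in percent, with 1 bar for each library. Nox1 takes 64.9% to 76.2% of the bar in Lgr5-enriched libraries and 13.1% to 27.0% in the other 6, where Duox2 takes most.

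The other catalytic genes were low. Duox1, the second dual oxidase, was at 0.331 to 3.16 TPM and passed in no comparison of all 9 libraries (limma adjusted p = 0.891, 0.852 and 0.735). It was at 3.16, 0.440 and 0.331 TPM in enterocyte-enriched replicates 1 to 3. Without enterocyte-enriched replicate 1, Duox1 and Duox2 were called higher in goblet- than in enterocyte-enriched cells, 2 of the 3 catalytic genes tested. With all 9 libraries that count was 0. Cybb, the phagocyte oxidase NOX2, was at 0 to 0.149 TPM in Lgr5- and goblet-enriched libraries and at 2.45, 1.43 and 0.257 TPM in enterocyte-enriched replicates 1 to 3. The enterocyte-enriched libraries with the most Cybb also had the most Lyz2, a macrophage and neutrophil marker, at 232, 133 and 12.9 TPM. The sum of 7 leukocyte markers without the MHC class II chaperone Cd74 was 241, 137 and 15.0 TPM there and 2.23 to 15.1 TPM elsewhere, while Ptprc, which encodes the gated antigen Cd45, was at most 1.20 TPM in any library. Lyz2 alone made up most of the sum in these enterocyte-enriched libraries. Of the other markers, Csf1r (means 0.0330, 0.179 and 1.59 TPM in Lgr5-, goblet- and enterocyte-enriched cells) and S100a8 (0.302, 0 and 0.884 TPM) were also highest there. Itgam (1.63, 2.39 and 2.06 TPM), Cd3e and Cd79a were not. The part of leukocytes in the level of Cybb or Cyba was not tested. Nox3 and Nox4 were read at most 1 time in a library.

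Noxa1, the activator that binds Rac and switches NOX1 on, was at 247, 220 and 332 TPM in Lgr5-enriched replicates 1 to 3. It was at 43.3, 74.4 and 92.5 TPM in goblet-enriched and 60.0, 51.3 and 88.7 TPM in enterocyte-enriched replicates. All Lgr5-enriched libraries were above all others, and the other populations overlapped. The means were 267 ± 58.5, 70.1 ± 24.9 and 66.7 ± 19.6 TPM (SD, n = 3), 3.80-fold and 3.998-fold higher in Lgr5-enriched cells. Noxa1 was lower by limma in goblet-enriched cells (log2 difference -1.96, SE 0.30, adjusted p = 0.00152) and in enterocyte-enriched cells (-1.999, SE 0.30, adjusted p = 0.000788). Both calls held in 19 of 19 alternatives, with adjusted p from 0.000102 to 0.00881 and from 5.11e-05 to 0.00458. Goblet- and enterocyte-enriched cells differed by 0.04 (SE 0.30, adjusted p = 0.922). The direction of that last difference turned under median-of-ratios scaling (-0.15).

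Noxo1, the organizer that brings NOX1 and Noxa1 together at the membrane, had overlapping levels in the 3 populations. It was at 143, 173 and 212 TPM in Lgr5-enriched, 130, 149 and 183 TPM in goblet-enriched and 187, 123 and 170 TPM in enterocyte-enriched replicates. The means were 176 ± 34.8, 154 ± 26.8 and 160 ± 33.0 TPM (SD, n = 3). The log2 differences were -0.19, -0.14 and -0.05 (SE 0.21) in the order goblet minus Lgr5, enterocyte minus Lgr5 and goblet minus enterocyte. None passed in limma (adjusted p = 0.511, 0.602 and 0.867), and their signs depended on the scaling. The first and second turned after median-of-ratios scaling (0.035 and 0.27), and the third after quantile normalization (0.035). With array weights, which give noisier libraries less say, enterocyte minus Lgr5 was -0.42 (adjusted p = 0.0413).

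The stoichiometry of the NOX1 complex transcripts followed from these levels. Noxa1 exceeded Noxo1 in all Lgr5-enriched libraries, with ratios of 1.73, 1.28 and 1.57, and was below it in all goblet-enriched (0.333, 0.501 and 0.506) and enterocyte-enriched libraries (0.322, 0.417 and 0.521). The ratio of Noxo1 to Nox1 was 0.187, 1.11 and 0.672 in Lgr5-enriched replicates 1 to 3. It was 2.34, 6.73 and 4.79 in goblet-enriched and 6.74, 30.2 and 10.6 in enterocyte-enriched replicates. The organizer was thus in excess of the catalytic transcript in all 6 differentiated libraries and in 1 of 3 Lgr5-enriched ones. The ratio of Cyba to Nox1 was 0.331 to 1.05 in Lgr5-enriched, 1.04 to 2.81 in goblet-enriched and 7.84 to 39.3 in enterocyte-enriched libraries.

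Cyba, p22phox, the membrane partner shared by NOX1 and the phagocyte oxidase, had another pattern. It was at 252, 164 and 196 TPM in Lgr5-enriched, 58.0, 62.2 and 59.4 TPM in goblet-enriched and 217, 160 and 178 TPM in enterocyte-enriched replicates. The goblet-enriched libraries lay below all others, while Lgr5- and enterocyte-enriched ones overlapped. The means were 204 ± 45.0, 59.9 ± 2.12 and 185 ± 29.1 TPM (SD, n = 3). Goblet-enriched cells were 3.41-fold below Lgr5-enriched cells by the means (log2 difference -1.73, SE 0.17, limma adjusted p = 0.000157). They were 3.09-fold below enterocyte-enriched cells (-1.60, SE 0.17, adjusted p = 0.000153). Both calls held in 19 of 19 alternatives, with adjusted p of at most 0.00129 and 0.000984. Enterocyte- and Lgr5-enriched cells differed by -0.13 (SE 0.17, adjusted p = 0.567), and by 0.28 after median-of-ratios scaling. By their sum, enteroendocrine markers were also lowest in goblet-enriched cells, but the members differed. The peptide hormone genes Pyy and Gcg were at 88.4 ± 36.0 and 33.9 ± 13.2 TPM in Lgr5-enriched, 1.03 ± 1.79 and 0.562 ± 0.340 TPM in goblet-enriched and 41.7 ± 18.5 and 17.99 ± 8.37 TPM in enterocyte-enriched cells (SD, n = 3). The markers Insl5 and Chga also had their lowest means in goblet-enriched cells (0.956 and 13.4 TPM), where Chga overlapped with Lgr5-enriched cells. Chgb (means 19.8, 27.2 and 61.5 TPM in the same order) and Neurod1 (0.424, 1.21 and 1.43 TPM) were instead lowest in Lgr5-enriched cells. The part of enteroendocrine cells in the levels of Cyba and Nlrp6 was not tested.

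Duoxa2, the maturation factor that carries DUOX2 out of the endoplasmic reticulum, was at 249, 25.3 and 46.1 TPM in Lgr5-enriched replicates 1 to 3. It was at 180, 14.0 and 21.5 TPM in goblet-enriched and 160, 12.7 and 32.6 TPM in enterocyte-enriched replicates. The populations overlapped and the first replicate stood apart in each, so the means of 107 ± 124, 71.9 ± 93.8 and 68.4 ± 79.8 TPM (SD, n = 3) have SDs larger than themselves. Without enterocyte-enriched replicate 1 the last mean was 22.7 TPM. No comparison passed in limma: the differences were -0.78, -0.69 and -0.09 (SE 1.19, adjusted p = 0.642, 0.657 and 0.956). Within a replicate number, the Lgr5-enriched library was the highest of the 3 each time. With the replicate block the differences from Lgr5-enriched cells passed (SE 0.16, limma adjusted p = 0.00636 for goblet- and 0.00788 for enterocyte-enriched cells), and goblet minus enterocyte did not (adjusted p = 0.646). The ratio of Duoxa2 to Duox2 was 1.05, 0.304 and 0.346 in Lgr5-enriched, 0.662, 0.184 and 0.211 in goblet-enriched and 0.899, 0.658 and 0.586 in enterocyte-enriched replicates. It was highest in replicate 1 of each population.

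**Figure D3:**
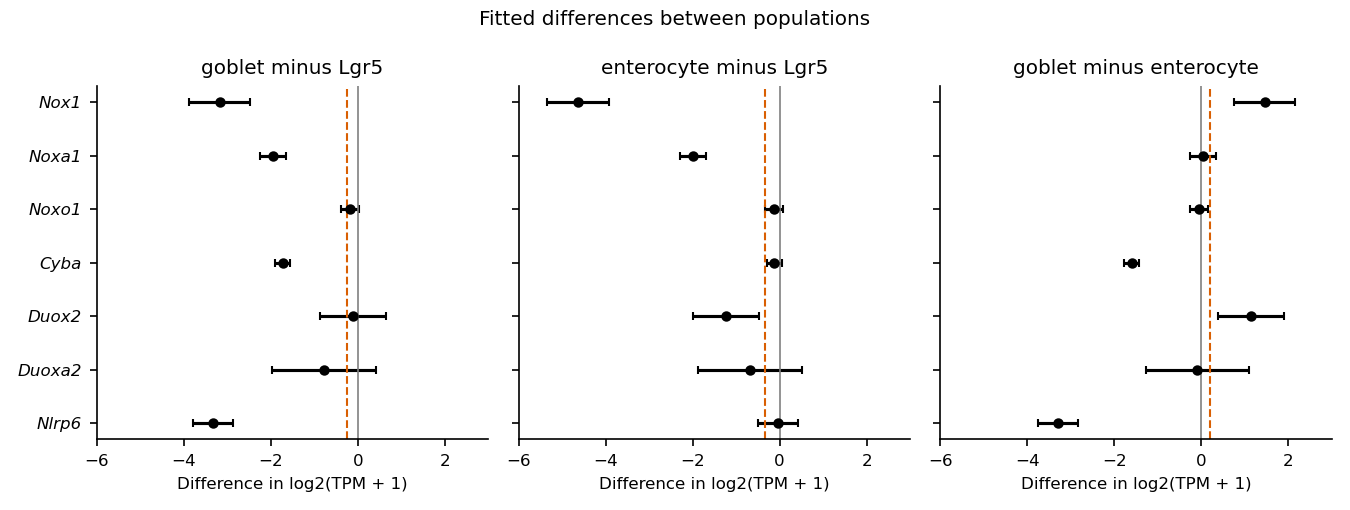
Fitted differences of the 7 genes in log2(TPM + 1) for the 3 comparisons, as points with bars of 1 SE on either side; the solid line is 0 and the dashed line the median of all 12888 genes. Noxa1 and Cyba lie left of 0 with short bars in goblet minus Lgr5, and Duoxa2 has the longest bars (SE 1.19).

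Of the 11 tested partners of NADPH oxidases (15 were listed and Cybc1 was not in the table), 1 was higher and 4 were lower in goblet- than in Lgr5-enriched cells. In enterocyte-enriched cells 0 were higher and 2 lower than in Lgr5-enriched cells, and 2 were higher and 2 lower in goblet- than in enterocyte-enriched cells. The list's median difference was -0.19, -0.30 and -0.05, near the values of all genes in the first 2 comparisons. With the replicate block the counts for enterocyte- against Lgr5-enriched cells were 1 higher and 3 lower. Rac3, a Rac GTPase, was at 24.0, 15.3 and 14.8 TPM in Lgr5-enriched and 4.55, 5.27 and 7.72 TPM in goblet-enriched replicates (log2 difference -1.47, SE 0.24, limma adjusted p = 0.00227). Rac1, the main GTPase of the NOX1 complex, was at 383 to 569 TPM in all libraries and passed in no comparison (adjusted p = 0.992, 0.383 and 0.403), though after median-of-ratios scaling it was higher in enterocyte-enriched cells (0.59, adjusted p = 0.033). Ncf1 and Ncf4, cytosolic subunits of the phagocyte oxidase, were at most 0.781 and 1.14 TPM.

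Both scaffold genes related to Noxo1 had called differences. Sh3pxd2a (TKS5) was at 2.70 ± 1.37 TPM in Lgr5-enriched and 12.9 ± 2.53 TPM (SD, n = 3) in goblet-enriched cells, and it was higher in the latter (1.97, SE 0.30, limma adjusted p = 0.00144). Sh3pxd2b (TKS4) was at 13.1, 11.5 and 13.2 TPM in Lgr5-enriched and 3.61, 3.71 and 3.70 TPM in enterocyte-enriched replicates, and it was lower there (-1.54, SE 0.16, adjusted p = 0.000212). Arhgef7, an exchange factor for Rac, was at 16.3 to 22.3 TPM and passed in no comparison (adjusted p = 0.492, 0.867 and 0.588). Duoxa1, the maturation factor of DUOX1, was at 0.282 to 6.93 TPM and did not pass (adjusted p = 0.891, 0.405 and 0.332), and it overlaps Duoxa2 on the other strand.

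Replicate 1 stood out for 3 of the 7 genes, a pattern chosen for description after its values were seen. In the order Lgr5-, goblet- and enterocyte-enriched, replicate 1 was 6.97-, 10.1- and 7.05-fold the mean of replicates 2 and 3 for Duoxa2 and 2.19-, 3.05- and 4.74-fold for Duox2. For Nox1 it was 3.23-, 1.85- and 2.74-fold. Noxa1 (0.518 to 0.893), Noxo1 (0.742 to 1.27), Cyba (0.954 to 1.40) and Nlrp6 (0.299 to 1.90) showed no such common excess. All 3 replicate 1 libraries of Duox2 (178 to 272 TPM) and of Duoxa2 (160 to 249 TPM) were above all 6 others (19.4 to 133 and 12.7 to 46.1 TPM), as was the case for 1.42% of the 12888 genes. Replicate 1 was the highest of its population in all 3 populations for these 2 genes and Nox1, as for 10.0% of genes. Ranked by the mean log2 excess of replicate 1 over the other replicates, Duoxa2 (3.01) was 17th, Duox2 (1.73) 54th and Nox1 (1.44) 80th of 12888 genes.

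Of the 9 genes at the head of that ranking, 2 are given in full. Reg3g, a secreted antibacterial lectin, was at 1066, 2.13 and 11.7 TPM in Lgr5-enriched, 143, 0.734 and 3.00 TPM in goblet-enriched and 475, 1.12 and 13.3 TPM in enterocyte-enriched replicates. Nos2, the inducible nitric oxide synthase, was at 160, 2.74 and 8.23 TPM in Lgr5-enriched, 12.1, 0.380 and 1.46 TPM in goblet-enriched and 38.4, 1.20 and 1.92 TPM in enterocyte-enriched replicates. The antibacterial lectin Reg3b, the MHC class II genes H2-Aa, H2-Eb1 and H2-Ab1 with their chaperone Cd74, Lrg1 and the microRNA gene Mir5107 were the other genes among the 9 first. Enterocyte-enriched replicate 1 had Xist at 0.128 TPM, against 150 and 110 TPM in Lgr5- and goblet-enriched replicate 1. By its sex-linked transcripts it does not come from the same animal as these 2 libraries, though it shares their number. Beyond that, animal, day and sequencing run cannot be told apart here.

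**Figure D4:**
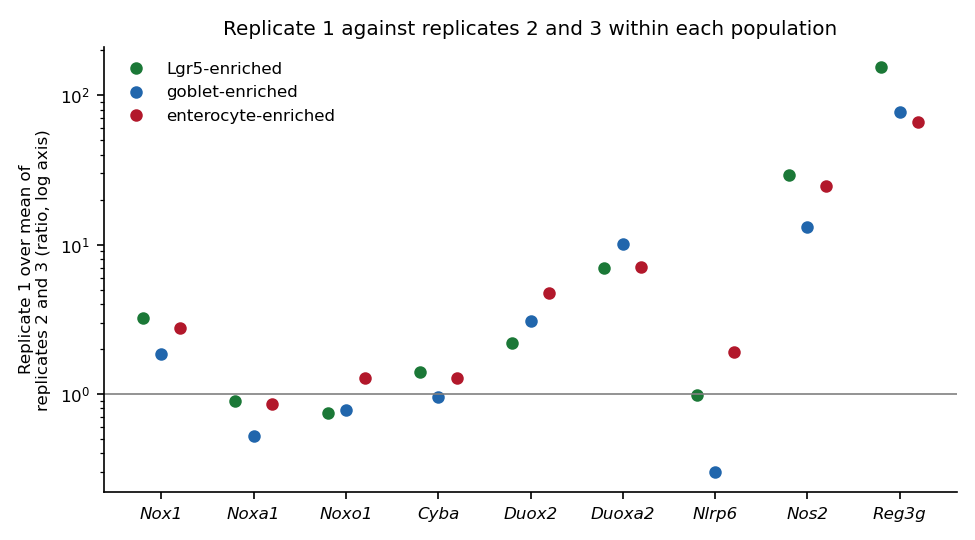
Level in replicate 1 divided by the mean level of replicates 2 and 3 (log axis) for the 7 genes and for Nos2 and Reg3g, with 1 point for each population; the line marks 1. Duox2 and Duoxa2 lie above 2 in all 3 populations and Noxa1 below 1 in all 3.

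Nlrp6, like Cyba, was lowest in goblet-enriched cells. It was at 178, 160 and 202 TPM in Lgr5-enriched, 7.63, 19.1 and 32.0 TPM in goblet-enriched and 273, 114 and 173 TPM in enterocyte-enriched replicates. The goblet-enriched libraries were far below all others, and the Lgr5- and enterocyte-enriched libraries overlapped. The means were 180 ± 21.4, 19.6 ± 12.2 and 187 ± 80.3 TPM (SD, n = 3). Nlrp6 was 9.53-fold lower by the means in goblet- than in enterocyte-enriched cells (log2 difference -3.30, SE 0.46, limma adjusted p = 0.000539), a call that held in 19 of 19 alternatives (adjusted p 8.44e-05 to 0.00282). From Lgr5-enriched cells, goblet-enriched cells differed by -3.33 and enterocyte-enriched cells by -0.03 (SE 0.46). The second of these kept its sign in 16 of 19 alternatives, some of which leave it unchanged by design, and was 0.38 after median-of-ratios scaling. Without enterocyte-enriched replicate 1 the enterocyte-enriched mean was 143 TPM and the difference from Lgr5-enriched cells -0.35. Among goblet-enriched replicates Nlrp6 was highest in replicate 3, which also had the highest mean log2(TPM + 1) of the 8 colonocyte markers (5.86, against 3.44 and 3.85 in replicates 1 and 2). The part of such cells in the goblet-enriched level of Nlrp6 was not tested.

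Of the 10 tested genes for the inflammasome adaptor, caspases, cytokines and effectors, 0 were higher and 3 lower in goblet- than in Lgr5-enriched cells. In enterocyte-enriched cells 3 were higher and 2 lower than in Lgr5-enriched cells (5 and 1 after median-of-ratios scaling), and 1 was higher and 5 lower in goblet- than in enterocyte-enriched cells. The list's median difference was -0.42, 0.23 and -0.61, beside -0.26, -0.35 and 0.20 for all genes. Of all genes, 10.7%, 12.0% and 28.2% were higher and 23.6%, 37.6% and 15.9% lower in that order of comparisons. The counts with the replicate block were 0 and 6, 5 and 2, and 1 and 6. Without enterocyte-enriched replicate 1 they were 2 higher and 3 lower in enterocyte- against Lgr5-enriched cells, and the median of goblet minus enterocyte was -0.32. Pycard, the adaptor ASC, was at 173, 192 and 205 TPM in Lgr5-enriched, 80.8, 84.1 and 97.7 TPM in goblet-enriched and 221, 222 and 248 TPM in enterocyte-enriched replicates. It was lower in goblet-enriched than in Lgr5-enriched (-1.11, SE 0.12, limma adjusted p = 0.000254) and enterocyte-enriched cells (-1.39, adjusted p = 6.54e-05), with no overlap. The adaptor was thus lowest where Nlrp6 was lowest, by a smaller factor. Pycard was not called between enterocyte- and Lgr5-enriched cells (0.27, adjusted p = 0.0881), but was with the replicate block (adjusted p = 0.0219).

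Casp1, the inflammatory caspase, was at 224, 167 and 175 TPM in Lgr5-enriched, 142, 90.9 and 98.7 TPM in goblet-enriched and 404, 263 and 290 TPM in enterocyte-enriched replicates. It was lower in goblet- than in enterocyte-enriched cells (-1.52, SE 0.22, limma adjusted p = 0.000662). It was also lower in goblet- than in Lgr5-enriched cells (-0.78, adjusted p = 0.0232), a call that was lost after median-of-ratios scaling (-0.56, adjusted p = 0.138). It was higher in enterocyte- than in Lgr5-enriched cells (0.74, adjusted p = 0.0195), and this call was lost without enterocyte-enriched replicate 1 (0.56, adjusted p = 0.0658). Casp4 (40.8 to 115 TPM) and Casp8 (75.2 to 118 TPM), the other caspases listed, passed in no comparison of all 9 libraries, except that Casp4 was lower in goblet- than in Lgr5-enriched cells with the replicate block (adjusted p = 0.0311). Without replicate 1 of every population Casp4 was lower in goblet- than in Lgr5-enriched (-0.66, adjusted p = 0.00918) and enterocyte-enriched cells (-0.62, adjusted p = 0.00991). Casp8 was then lower in goblet- (-0.40, adjusted p = 0.0192) and enterocyte-enriched (-0.41, adjusted p = 0.0129) than in Lgr5-enriched cells.

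Il18 and Gsdmd, whose proteins caspase-1 cleaves, were highest in enterocyte-enriched cells. Il18, the epithelial cytokine matured by caspase-1, was at 478, 449 and 472 TPM there, 39.7, 70.5 and 67.0 TPM in Lgr5-enriched and 14.2, 20.6 and 36.4 TPM in goblet-enriched replicates. None of these ranges overlapped. Il18 was higher in enterocyte- than in Lgr5-enriched cells (3.00, SE 0.32, limma adjusted p = 0.000235) and lower in goblet- than in Lgr5-enriched cells (-1.34, adjusted p = 0.0117). Lgr5- and enterocyte-enriched cells, whose Nlrp6 levels overlapped, therefore differed 7.89-fold in Il18. Il1b and Il1a, the other cytokines of the list, were at most 0.470 and 1.25 TPM and were not tested. Gsdmd, the pore-forming effector, was at 389, 174 and 204 TPM in enterocyte-enriched and 75.8 to 82.8 TPM in Lgr5-enriched replicates, and it was higher in enterocyte-enriched cells (1.58, SE 0.26, adjusted p = 0.00118).

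**Figure D5:**
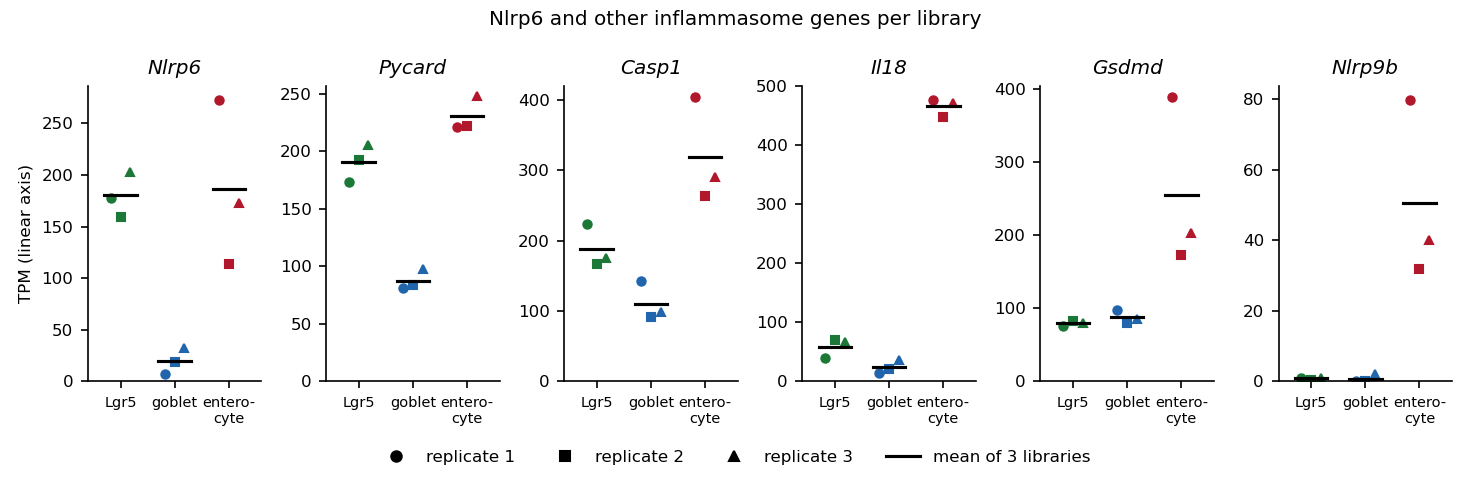
Level of Nlrp6 and of 5 other inflammasome genes in each of the 9 libraries, in TPM on linear axes that differ between panels, with bars at the mean of 3 libraries. Nlrp6 and Pycard are lowest in goblet-enriched cells, and Il18 (449 to 478 TPM) and Nlrp9b (31.8 to 79.8 TPM) are highest in enterocyte-enriched cells.

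The other sensors of the NLR family formed a list with Nlrp6. Of all genes, 10.7% and 23.6% were higher and lower in goblet- and 12.0% and 37.6% in enterocyte- than in Lgr5-enriched cells. In goblet- against enterocyte-enriched cells these shares were 28.2% and 15.9%. Of 14 tested without Nlrp6, 0 were higher and 2 lower in goblet- than in Lgr5-enriched cells (0 and 0 after median-of-ratios scaling), and 5 were higher and 2 lower in enterocyte- than in Lgr5-enriched cells. With Nlrp6, 2 of 15 were higher and 6 lower in goblet- than in enterocyte-enriched cells, and 2 and 4 without enterocyte-enriched replicate 1. With the replicate block 0 were higher and 5 lower in goblet- than in Lgr5-enriched cells. Nlrp9b, an intestinal sensor of viral RNA, was at 79.8, 31.8 and 40.2 TPM in enterocyte-enriched and at most 1.97 TPM in the 6 other libraries (enterocyte minus Lgr5 4.71, SE 0.45, limma adjusted p = 0.000187). Naip1, which recognizes bacterial secretion needles, was at 187, 105 and 109 TPM in enterocyte-enriched and 29.3, 35.1 and 37.1 TPM in Lgr5-enriched replicates (1.90, SE 0.22, adjusted p = 0.000305). Nod2, a sensor of bacterial peptidoglycan, went the other way and was at 2.34, 2.38 and 1.96 TPM in enterocyte-enriched and 20.1, 13.5 and 8.67 TPM in goblet-enriched replicates (goblet minus enterocyte 2.16, adjusted p = 0.000376). Nlrp3, the sensor of many inflammasome studies, was at most 0.310 TPM in any library.

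A further list held genes that remove superoxide and peroxide, the products of these oxidases. Of 22 tested, 1 was higher and 13 lower in goblet- than in Lgr5-enriched cells, against 1 and 6 after median-of-ratios scaling, where 10.7% and 23.6% of all genes were higher and lower before that scaling. In enterocyte-enriched cells 5 were higher and 10 lower, a balance that turned to 8 and 3 after that scaling. In goblet- against enterocyte-enriched cells 3 were higher and 9 lower. The list's median difference was -0.54, -0.43 and -0.27 in the 3 comparisons, beside -0.26, -0.35 and 0.20 for all genes. Gpx2, the glutathione peroxidase of the gut epithelium, was at 3687, 1897 and 2629 TPM in Lgr5-enriched and 576, 472 and 803 TPM in enterocyte-enriched replicates (-2.13, SE 0.31, limma adjusted p = 0.000684). Prdx6, a peroxiredoxin with phospholipase activity, was at 187, 192 and 215 TPM in Lgr5-enriched and 3359, 1553 and 1438 TPM in enterocyte-enriched replicates (3.30, SE 0.37, adjusted p = 0.000263). Srxn1, which restores oxidized peroxiredoxins, was higher in enterocyte-enriched cells as well (102 ± 24.4 against 34.9 ± 5.17 TPM, SD, n = 3, adjusted p = 0.00033). Prdx4, the peroxiredoxin of the endoplasmic reticulum, was lower there (37.7 ± 8.66 against 133 ± 13.3 TPM, SD, n = 3, adjusted p = 0.000247).

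NADPH is the electron donor of the oxidases. Of 10 genes listed for enzymes that supply it, 0 were higher and 7 lower in goblet- than in Lgr5-enriched cells (0 and 6 after median-of-ratios scaling). In enterocyte-enriched cells 0 were higher and 6 lower than in Lgr5-enriched cells (2 and 3 after that scaling). In goblet- against enterocyte-enriched cells 1 was higher and 2 were lower (1 and 4 with the replicate block). The shares of all genes higher and lower in these 3 comparisons were 10.7% and 23.6%, 12.0% and 37.6%, and 28.2% and 15.9%. Whether each transcript of this list yields a working enzyme in these mice was not tested. The called members with the largest differences were Mthfd1, a folate-cycle enzyme (goblet minus Lgr5 -1.71, limma adjusted p = 0.00191), Nnt, the mitochondrial transhydrogenase (-1.14, adjusted p = 0.0029), Idh1, the cytosolic isocitrate dehydrogenase (-1.13, adjusted p = 0.000715), and G6pdx, the entry enzyme of the pentose phosphate pathway (-0.95, adjusted p = 0.00495). Of 11 genes of the Nrf2 pathway, which responds to oxidants, 0 were higher and 8 lower in goblet- than in Lgr5-enriched cells. In enterocyte-enriched cells 3 were higher and 4 lower (3 and 1 after median-of-ratios scaling, 1 and 3 without enterocyte-enriched replicate 1), and in goblet- against enterocyte-enriched cells 2 were higher and 5 lower. Nqo1, a quinone reductase, was at 79.0, 75.4 and 103 TPM in Lgr5-enriched and 1.13, 8.18 and 14.3 TPM in goblet-enriched replicates (-3.68, SE 0.60, adjusted p = 0.00207). Gsta1, a glutathione transferase (goblet minus enterocyte -4.55, adjusted p = 0.000148), and Ugdh, which makes the donor for glucuronidation (-3.11, adjusted p = 3.87e-05), were lower in goblet- than in enterocyte-enriched cells. Slc7a11, the cystine importer, was higher (1.57, adjusted p = 0.00882).

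Haem peroxidases use hydrogen peroxide, and 2 of the 5 listed were tested. Lpo, lactoperoxidase, was at 76.2, 26.3 and 36.5 TPM in Lgr5-enriched, 34.6, 14.8 and 29.2 TPM in goblet-enriched and 12.4, 3.86 and 7.98 TPM in enterocyte-enriched replicates. It was lower in enterocyte- than in Lgr5-enriched cells (-2.36, SE 0.48, limma adjusted p = 0.00356), and replicate 1 was the highest of each population. Goblet- and Lgr5-enriched cells differed in Lpo only with the replicate block (adjusted p = 0.00731 against 0.262). Pxdn, peroxidasin, was lower there too (6.56 ± 5.75 against 0.293 ± 0.155 TPM, SD, n = 3, adjusted p = 0.0063). The neutrophil enzyme Mpo was listed at 0 in all libraries.

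The last 4 lists held genes of microbial sensing, cytokine reception, induction by microbes and autophagy. Their counts stand beside shares of all genes of 10.7% higher and 23.6% lower in goblet- than in Lgr5-enriched cells. The shares were 12.0% and 37.6% in enterocyte- against Lgr5-enriched cells, and 28.2% and 15.9% in goblet- against enterocyte-enriched cells. Of 17 genes of microbial sensing, 0 were higher and 3 lower in goblet- and 1 higher and 4 lower in enterocyte- than in Lgr5-enriched cells (2 and 2, and 5 and 2, after median-of-ratios scaling), and 3 were higher and 3 lower in goblet- against enterocyte-enriched cells (0 and 4 after that scaling, 2 and 2 without enterocyte-enriched replicate 1). Under the replicate block they were 2 and 4, 2 and 7, and 3 and 4. Without enterocyte-enriched replicate 1, 0 were higher and 4 lower in enterocyte- than in Lgr5-enriched cells. Tlr2 and Tlr1, which form a receptor for bacterial lipopeptides, were lower in goblet- than in Lgr5-enriched cells (-2.20 and -1.51, limma adjusted p = 0.000115 and 0.000631). Ripk2, the kinase below Nod1 and Nod2, and Irak1, a kinase below Toll-like receptors, were lower in enterocyte- than in Lgr5-enriched cells (-1.27 and -0.80, adjusted p = 0.0068 and 0.000625), though after quantile normalization Ripk2 missed the threshold (adjusted p = 0.0501). Of 14 cytokine receptor and signal genes, 0 were higher and 2 lower in goblet- and 5 higher and 0 lower in enterocyte- than in Lgr5-enriched cells (2 and 0, and 7 and 0, after median-of-ratios scaling). In goblet- against enterocyte-enriched cells 1 was higher and 5 were lower (0 and 5 without enterocyte-enriched replicate 1). With the replicate block 1 was higher and 5 were lower in goblet- than in Lgr5-enriched cells (1 and 3 without enterocyte-enriched replicate 1). Il22ra1, the receptor chain for interleukin-22, was at 43.5, 24.0 and 23.1 TPM in enterocyte-enriched and 15.1, 12.4 and 11.2 TPM in Lgr5-enriched replicates (1.12, adjusted p = 0.00691). Il17rc and Ifngr1, receptor chains for interleukin-17 and interferon gamma, were higher there too (1.21 and 0.80, adjusted p = 0.00114 and 0.005), and Socs3, a feedback inhibitor of cytokine signals, was lower in goblet- than in enterocyte-enriched cells (-1.33, adjusted p = 0.0132).

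Of 9 tested genes that microbes induce in epithelium, 1 was higher and 0 lower in goblet- and 3 higher and 0 lower in enterocyte- than in Lgr5-enriched cells, and 1 was higher and 2 lower in goblet- against enterocyte-enriched cells. The blocked counts were 1 and 3, 3 and 1, and 1 and 4. Without enterocyte-enriched replicate 1 the counts were 1 and 0, 2 and 0, and 1 and 1. The shares of all genes in the reported fit were 10.7% and 23.6%, 12.0% and 37.6%, and 28.2% and 15.9%. Fut2, the fucosyltransferase of the mucosal surface, was higher in goblet-enriched cells (395 ± 134 against 60.0 ± 4.71 TPM, SD, n = 3, limma adjusted p = 0.000403). Saa1, an acute-phase protein, was at 4378, 518 and 789 TPM in enterocyte-enriched and at most 44.3 TPM in the other libraries (enterocyte minus Lgr5 6.75, adjusted p = 0.0016). Saa3 was higher in enterocyte-enriched cells (2.61, adjusted p = 0.0352), a call that was lost without enterocyte-enriched replicate 1 (1.92, adjusted p = 0.124). Of 10 autophagy genes, 0 were higher and 1 lower in goblet- and 1 higher and 2 lower in enterocyte- than in Lgr5-enriched cells (2 and 0 in both after median-of-ratios scaling), and 2 were higher and 0 lower in goblet- against enterocyte-enriched cells (0 and 0 after that scaling and without enterocyte-enriched replicate 1). The counts with the block were 2 and 1, 1 and 3, and 3 and 1. The largest called differences were those of Map1lc3a, which marks autophagosomes (enterocyte minus Lgr5 0.90, adjusted p = 0.0407), and Ulk1, the kinase that starts autophagy (-0.72, adjusted p = 0.0084). Those of Atg16l1 (-0.60, adjusted p = 0.00355) and Atg3 (goblet minus enterocyte 0.56, adjusted p = 0.0252), which act in LC3 lipidation, were smaller, and after median-of-ratios scaling Ulk1, Atg16l1 and Atg3 did not pass (adjusted p = 0.113, 0.249 and 0.14). Atg3 also did not pass without enterocyte-enriched replicate 1 (adjusted p = 0.0767).

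The genes most like 3 of the members were ranked by Pearson's r of log2(TPM + 1) over the 9 libraries, a description over libraries that fall into 3 populations and share replicate numbers. Nox1 was most like Psmd2 (r = 0.986), Inip (0.984), Usp39 (0.982), Ccdc34 (0.980) and Casp8ap2 (0.979). Among the members Noxa1 came nearest (0.827), at place 1561 of 12887. The r does not weigh the size of a change: Psmd2 had means of 209, 167 and 153 TPM in Lgr5-, goblet- and enterocyte-enriched cells. Nlrp6 was most like Rhog (0.988), Ano9 (0.987), Dmbt1 (0.987), H2-T3 (0.983) and Adamts15 (0.983). Cyba was 61st in that order (0.947), ahead of every other member. Duox2 was most like Marf1 (0.951), Dcp2 (0.938), H2-Q4 (0.919), Gm8801 (0.916) and H2-Q10 (0.914), and Duoxa2 was 82nd (0.846). H2-Q4 and H2-Q10 are similar MHC class I genes whose reads can be shared between copies. Noxo1 was near none of the 3, with r of 0.328, 0.460 and 0.221 to Nox1, Nlrp6 and Duox2.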

How the data were processed

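Poly-A RNA of 9 libraries, 3 of each sorted population, was measured with a stranded kit, per the labels' protocols. The authors deposited 1 value per gene symbol and library, made with Cufflinks on mm10 per the submitters' processing notes, with no version. As tested on the values, these are log2 of the TPM from 1 TPM upwards and TPM minus 1 below, as deposited by the authors. For the aligner, annotation and strand setting: not given in the sources used here. The labels name 2 instruments and do not say which read which library. The design had allowed for FPKM or TPM, and TPM was used.

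The values were returned to TPM. For 18386 of 18396 genes above 0 (99.946%) they were whole multiples of 1 read to within 1e-06 of a read (lengths up to 20000 bases tried), which gives the depth; 1 read in a transcript of 1 kb was worth 0.0958 to 0.208 TPM. Differences were tested with moderated linear models (limma 3.58.1, mean-variance trend, under R 4.3.3) on log2(TPM + 1) over all 9 libraries with 1 mean per population, two-sided, with Benjamini-Hochberg adjustment over 12888 genes, 6 residual and 3.21 prior degrees of freedom. The script was tested on simulated data. Summaries used Python 3.11.15, pandas 2.3.3 and NumPy 2.4.6.

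The series text gives an independent mouse for each replicate, and 3 mice for the 9 samples. Deviations of same-numbered libraries from their population means correlated in all 9 pairs of libraries (r from 0.194 to 0.601). The reported fit leaves the replicate number out, and a fit with that number as a block was the main alternative. For enterocyte-enriched replicate 1 the sex-linked transcripts go against a shared animal, so there the block stands for a shared number only. Other scalings, pseudocounts, filters, library weights and left-out libraries were also tried. The members and lists were chosen with earlier results of these data known. From each of 12 lists the text names up to 4 called genes with the largest differences, and every oxidase, partner, inflammasome adaptor, caspase or cytokine with at least 1 TPM in 3 libraries. For Nox1, Nlrp6 and Duox2 it names the 5 genes most like them. Genes at lower levels and those of the replicate 1 pattern were named after their values were seen. One gene of the partner list is counted but not reported here by name.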

Additional observations from a re-analysis of the deposited data

How the results depend on the processing

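The calls of Noxa1 and Cyba, and that of Nlrp6 between goblet- and enterocyte-enriched cells, kept direction and threshold in 19 of 19 alternatives. Of the tested member differences under these alternatives, 10 passed the threshold where the reported analysis had not, and 28 changed sign, none of them a called difference. Of the untested differences of Nox1 and Nlrp6 from Lgr5-enriched cells, that of Nlrp6 in enterocyte-enriched cells kept its sign in 16 of 19. Some alternatives leave an estimate unchanged by design. Signs changed after median-of-ratios scaling for goblet minus Lgr5 in Noxo1 (0.035) and Duox2 (0.12), for enterocyte minus Lgr5 in Noxo1 (0.27), Cyba (0.28) and Nlrp6 (0.38), and for goblet minus enterocyte in Noxa1 (-0.15). They changed after quantile normalization for goblet minus enterocyte in Noxa1 (-5.5e-05) and Noxo1 (0.035), and with array weights in Noxo1 (0.077). With libraries left out, goblet minus Lgr5 ran from -0.64 to 0.28 in Duox2 and from -1.88 to 0.16 in Duoxa2. Enterocyte minus Lgr5 ran from -0.40 to 0.038 in Noxo1, -0.27 to 0.038 in Cyba, -1.65 to 0.26 in Duoxa2 and -0.36 to 0.27 in Nlrp6. Goblet minus enterocyte ran from -0.19 to 0.35 in Noxa1, -0.23 to 0.19 in Noxo1 and -1.19 to 0.88 in Duoxa2. Over all genes, 4423 were called between goblet- and Lgr5-enriched cells, 6396 between enterocyte- and Lgr5-enriched cells and 5687 between goblet- and enterocyte-enriched cells. The first count was 7611 with array weights and 2660 to 5732 with libraries left out, lowest without Lgr5-enriched replicate 3; the cause was not tested. With the replicate block the counts were 6357, 7891 and 7336, and beyond the member calls given in the text for Nox1, Duox2 and Duoxa2 the block changed no member call. Scaling without Rn45s, chosen after seeing the data, gave 4654, 6563 and 5710. At the depth of these libraries, levels below about 1 TPM rest on few reads.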
